A study of Mus musculus with 2 samples.

Results

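Cathepsins are the proteases of the lysosome and cystatins are proteins that block the cysteine proteases among them. The 8 cathepsin genes described here are Ctss, Ctsh, Ctsc, Ctsz, Ctsb and Ctsl (cysteine proteases of the papain family), Ctsd (an aspartic protease) and Ctsa (a serine carboxypeptidase), and the 2 cystatin genes are Cst3 and Cstb. They were chosen by name, 10 rows of a table of 15239 genes, and all 10 had a row. Ctss was included because its difference between the samples was known to be very large, so its values are a description and support nothing further.

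Libraries of mRNA were made from mammary basal cells of the mouse, the outer epithelial layer of the gland, which carried a short hairpin RNA against the kinase gene Cdk14 (Cdk14-sh) or a scrambled hairpin (Scramble control). Each group held 1 library from tissue labelled normal mammary gland, and the strain, age and number of mice are not given in the sources used here. There is therefore no replicate check, no test between conditions and no p-value. The labels disagree on the material: a design text names the human line MDA-MB-231 and an extraction text names retinas, while the identifiers are those of mouse genes. All 16 basal markers looked up had a row, with summed levels of 3418 FPKM in Cdk14-sh and 4745 FPKM in Scramble control. They went both ways, and 6 of the 16 were higher in Cdk14-sh. Trp63 was at 23.9 FPKM in Cdk14-sh and 8.42 FPKM in Scramble control, and Actg2 at 3.66 and 120 FPKM. Of 8 retina markers 2 had a row, at 1.78 and 3.47 FPKM in sum. FPKM divides a gene's fragment count by gene length and library size, so levels can be set side by side between genes. The values corresponded to totals of 5088592 fragments in Cdk14-sh and 5093462 in Scramble control. Every row was above 0 in both libraries, so a gene found in one library alone has no row. Cdk14 itself stood at 0.713 FPKM in Cdk14-sh and 2.06 FPKM in Scramble control, 34.5% of the control level (25.9 to 45.7). Intervals in parentheses are exact 95% binomial intervals that cover counting error only.

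Cathepsins are made as inactive precursors, carried to acidic compartments by mannose 6-phosphate receptors and activated there by cleavage. Most tissues use Ctsb, Ctsd and Ctsl for general protein breakdown. Ctss has a narrower distribution. It is abundant in antigen-presenting cells, where it trims the invariant chain (Cd74) that occupies new MHC class II molecules, and it stays active at neutral pH outside cells. Cystatin C (Cst3) is secreted, whereas cystatin B (Cstb, stefin B) is held inside the cell.

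Ctss and Ctsh were the only members past 2-fold upward in Cdk14-sh, and no member was past 2-fold downward unless the libraries were scaled to equal ribosomal protein genes, a scaling that lowers log2 ratios by up to 0.61 and puts Ctsl past it. With a pseudocount of 5 in place of 1, Ctss alone was past 2-fold. The limit was set on the log2 ratio of FPKM with a pseudocount of 1, over genes whose mean reached 1 FPKM. At this limit 14.3% of 12819 measured genes were higher and 13.5% were lower, against 2 and 0 of the 10 members, all of which were measured. Ctss and Ctsh reached this mean through Cdk14-sh alone. Of the members, 9 had a mean above 5 FPKM, and at or above that mean 11.7% of genes were higher and 11.3% lower. The median log2 ratio was 0.42 over the members (-0.19 with the ribosomal scaling) and 0.02 over all measured genes. Of the 10, 6 were above 0 and 4 below. Ctss, included for its difference, is part of these counts and of the members' median. Apart from it, Ctsh alone was past 2-fold upward.

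**Figure D1:**
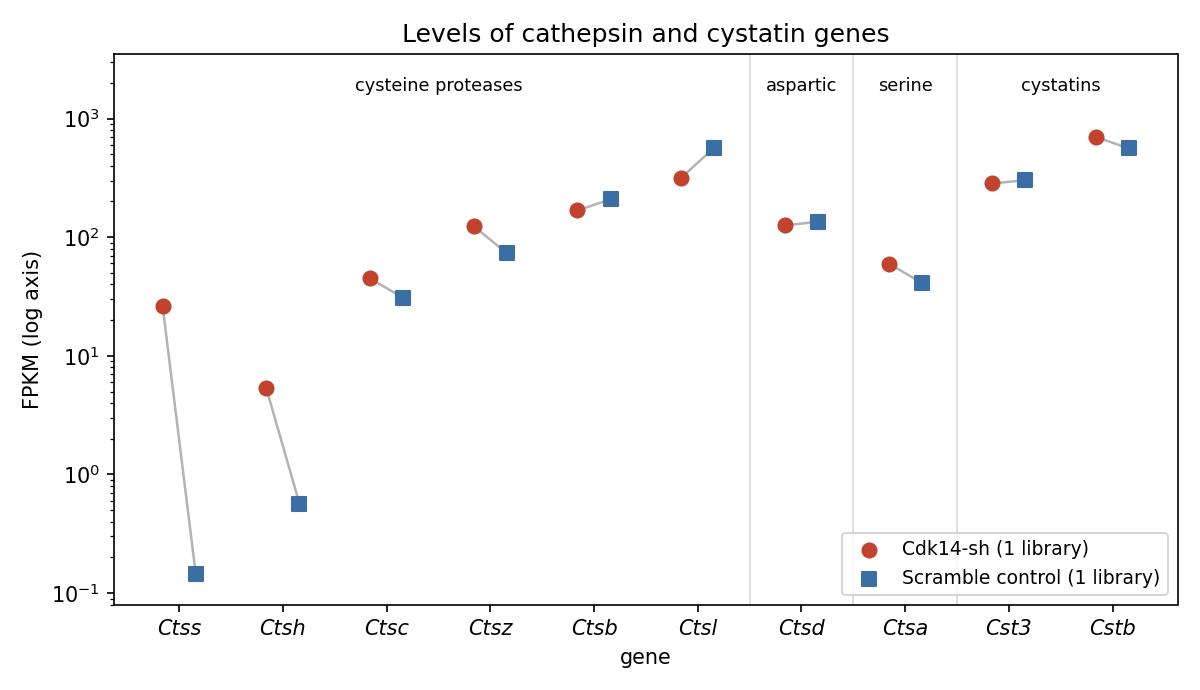
FPKM on a log axis for the 10 genes, grouped by kind of protease or inhibitor, with Cdk14-sh as circles and Scramble control as squares (1 library each, no error bars). Ctss (26.5 and 0.145 FPKM) and Ctsh (5.33 and 0.567 FPKM) are far apart, and the other pairs differ by less than 2-fold.

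Ctss (ENSMUSG00000038642, protein coding, chromosome 3 from 95526786 to 95556403 on the plus strand of GRCm38) stood at 26.5 FPKM in Cdk14-sh and 0.145 FPKM in Scramble control. These levels rest on 183 fragments in Cdk14-sh and on 1 fragment in Scramble control. The FPKM ratio was 183, with a counting interval of 32.5 to 7274 that reflects the single control fragment. Among all genes it ranked 2646 by level in Cdk14-sh and 14147 in Scramble control, of 15224 gene symbols. On the log2 scale with a pseudocount its ratio was 4.59, and 6 measured genes, itself included, had one at least as high. Genes at 0 in a library have no row and could not be counted. Among genes with a row, such pairs of a single fragment and a high level were uncommon. Of 657 genes at 1 fragment in Scramble control, 40 had at least 5 FPKM in Cdk14-sh and 3, Ctss among them, had at least the level of Ctss. In the other direction, 31 of 434 genes at 1 fragment in Cdk14-sh had at least 5 FPKM in Scramble control.

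The nearest protein-coding genes with a row on either side of Ctss, looked up after its values were seen, had much smaller differences. Arnt, a partner of hypoxia-inducible factors that lies 29546 bases before it, was at 8.81 FPKM in Cdk14-sh and 14.6 FPKM in Scramble control. Ensa, a regulator of a mitotic phosphatase that lies 68590 bases after it, was at 33.1 and 23.2 FPKM. Ctsk, the osteoclast cathepsin that lies between Arnt and Ctss, has no row.

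A RefSeq start of each of Ctss, Ctsd and Ctsl is shown, because these windows differ in 2 short motifs linked to the genes' known regulation. RefSeq windows of 300 bases (GRCm38.p6, 250 before and 50 after the start) were found for 7 of the 10 members. Ctsb, Ctsh and Cstb had none, so these genes were not searched for the motifs. The starts used for Ctsd and Ctsl lie inside these genes as annotated by GENCODE, which begin at 142388038 and 64370890. The whole Ctsl window lies inside, so it shows no sequence before that gene. The motifs were CACGTG, the core of the element bound by the lysosomal regulator TFEB, and GAAANNGAAA, the core of interferon-stimulated response elements, both searched on both strands. The second was added after the sequences were seen. Capitals mark the matches.
Ctss, plus strand, chr3:95526536-95526835: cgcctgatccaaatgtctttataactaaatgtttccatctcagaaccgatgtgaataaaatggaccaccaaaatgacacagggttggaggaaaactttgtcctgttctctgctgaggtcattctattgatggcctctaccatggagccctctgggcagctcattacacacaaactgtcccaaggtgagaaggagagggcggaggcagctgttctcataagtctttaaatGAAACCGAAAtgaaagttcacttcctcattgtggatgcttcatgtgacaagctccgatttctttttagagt
Ctsd, minus strand, chr7:142387778-142388077: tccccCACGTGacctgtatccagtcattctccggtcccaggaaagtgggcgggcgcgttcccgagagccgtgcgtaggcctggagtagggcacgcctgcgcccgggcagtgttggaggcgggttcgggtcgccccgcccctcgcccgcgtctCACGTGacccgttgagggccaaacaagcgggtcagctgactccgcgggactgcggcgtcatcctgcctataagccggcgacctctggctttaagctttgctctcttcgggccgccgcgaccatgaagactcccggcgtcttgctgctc
Ctsl, minus strand, chr13:64370471-64370770: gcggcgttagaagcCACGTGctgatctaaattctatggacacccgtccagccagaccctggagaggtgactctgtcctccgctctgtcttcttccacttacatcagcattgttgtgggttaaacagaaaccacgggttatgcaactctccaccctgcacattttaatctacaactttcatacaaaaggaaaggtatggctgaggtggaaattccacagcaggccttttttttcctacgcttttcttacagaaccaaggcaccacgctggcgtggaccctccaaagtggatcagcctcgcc

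Only the Ctss window, of the 8 windows of these 7 members, held the interferon-type motif, which begins 21 bases before the start and occurs in 3.44% of all 32851 windows. It had no CACGTG. Ctsd held 2 copies of CACGTG, Ctsl held 1 and one of the 2 windows of Ctsa held 2, where 7.15% of all windows hold at least 1. The Ctsl window and this Ctsa window lie inside the genes as annotated by GENCODE. With a T in front (TCACGTG, which contains the shorter motif) the matches were in Ctsd and Ctsa, against 3.77% of all windows. The window of Ctss was 44.0% G and C with 5 CpG pairs, and that of Ctsd was 67.3% with 33, around a median of 52.7% and 7 for all windows. A match describes these letters and says nothing about binding.

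Ctsh (ENSMUSG00000032359, chromosome 9 from 90054152 to 90076089, plus strand) encodes an aminopeptidase of the lysosome. Its level was 5.33 FPKM in Cdk14-sh and 0.567 FPKM in Scramble control, from 122 and 13 fragments, a ratio of 9.39 (5.29 to 18.1). It was the lowest of the 8 cathepsins in Cdk14-sh and the second lowest in Scramble control, after Ctss. Of all measured genes, 3.21% had a log2 ratio as high as its 2.01. The neighbouring gene Morf4l1, a chromatin protein gene 15576 bases after it, was at 23.7 FPKM in Cdk14-sh and 17.2 FPKM in Scramble control.

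Ctsz, Ctsc and Ctsa, which remove residues from the ends of proteins, were higher in Cdk14-sh by less than 2-fold. Ctsz, the carboxypeptidase cathepsin X, was at 124 FPKM in Cdk14-sh and 73.1 FPKM in Scramble control, a ratio of 1.70 (1.52 to 1.89). Ctsc, the dipeptidyl peptidase that activates the serine proteases of leukocyte granules, was at 44.9 and 30.8 FPKM, a ratio of 1.46 (1.34 to 1.59). Ctsa, which also shields beta-galactosidase and neuraminidase from breakdown, was at 59.9 and 41.3 FPKM, a ratio of 1.45 (1.34 to 1.58). Each difference exceeded counting error. Ctsc and Ctsa turned to log2 ratios of -0.069 and -0.076 with the ribosomal scaling, and that of Ctsz fell from 0.75 to 0.145. Of the exonic bases of Ctsa, 17.4% lie opposite other genes, and the sources used here do not say if reads were counted by strand.

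Ctsl and Ctsb, both abundant, were lower in Cdk14-sh, and Ctsd was within counting error. Ctsl, which degrades proteins in lysosomes and also acts outside cells, was at 316 FPKM in Cdk14-sh and 569 FPKM in Scramble control, 1.80-fold lower (1.76 to 1.84). Its rank among all genes was 156 in Cdk14-sh and 61 in Scramble control, and 16.9% of measured genes had a log2 ratio as low as its -0.85. Ctsb, which cleaves both inside proteins and from their ends, was at 168 and 209 FPKM, 1.24-fold lower (1.19 to 1.29). Ctsd was at 126 FPKM in Cdk14-sh and 135 FPKM in Scramble control, a ratio of 0.932 (0.868 to 1.00), so these 2 libraries were not told apart by more than counting error. Ctsd shares 34.4% of its exonic bases with Gm49369 on its strand, and 26.8% of those of Ctsl lie opposite Gm47123. How fragments in these stretches were assigned is not stated.

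**Figure D2:**
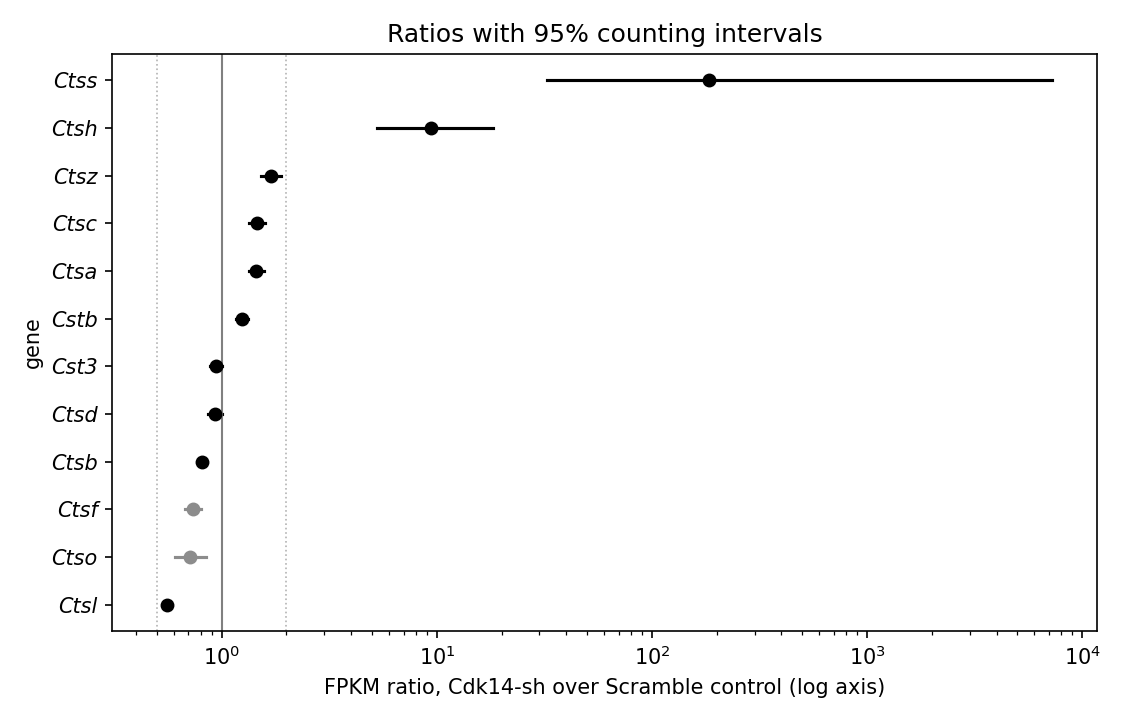
FPKM ratio of Cdk14-sh over Scramble control on a log axis for the 10 members (black) and the 2 further cathepsins Ctso and Ctsf (grey), with 95% counting intervals. Dotted lines mark 2-fold. Ctss and Ctsh lie far to the right with wide intervals, and Ctsl is the lowest at a ratio of 0.556.

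The make-up of the cathepsin transcripts thus differed between the libraries. Summed over the 8 genes, the level was 871 FPKM in Cdk14-sh and 1058 FPKM in Scramble control. Ctsl made up 36.3% of this sum in Cdk14-sh and 53.8% in Scramble control. Without Ctsl the sum was 555 FPKM in Cdk14-sh and 489 FPKM in Scramble control, the opposite order as deposited, though the ribosomal scaling took the Cdk14-sh sum to 362 FPKM. Ctsz made up 14.2% and 6.91%, Ctss 3.04% and 0.0137%, and Ctsb close to the same share in each, 19.3% and 19.7%. Even in Cdk14-sh, Ctss was below each of the 8 but Ctsh. The levels of Ctsl and Ctsb stood in a ratio of 1.88 in Cdk14-sh and 2.73 in Scramble control. These shares do not depend on how the libraries were scaled to each other.

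**Figure D3:**
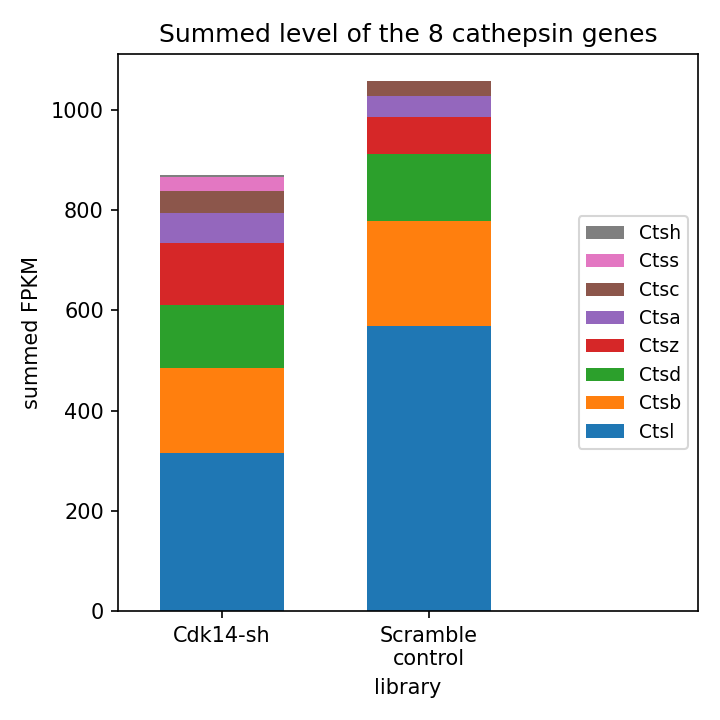
Summed FPKM of the 8 cathepsin genes in each library (1 each), stacked by gene from Ctsl at the bottom. The Ctsl part is 316 FPKM in Cdk14-sh and 569 FPKM in Scramble control, and Ctss is visible in Cdk14-sh alone.

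Both cystatin genes differed by less than 2-fold. Cstb was the most abundant member in Cdk14-sh, at 698 FPKM against 559 FPKM in Scramble control, a ratio of 1.25 (1.17 to 1.33) that turned to a log2 ratio of -0.29 with the ribosomal scaling. Cst3 was at 284 FPKM in Cdk14-sh and 302 FPKM in Scramble control, a ratio of 0.939 (0.881 to 1.00), within counting error. Together the cystatins summed to 982 FPKM in Cdk14-sh and 861 FPKM in Scramble control, which is 1.13 and 0.814 times the cathepsin sum of the same library.

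Of 17 further cathepsins and related genes, 3 had a row, and none was past 2-fold as deposited (1 was lower with the ribosomal scaling). Ctsf was at 36.4 FPKM in Cdk14-sh and 49.6 FPKM in Scramble control, 1.36-fold lower (1.25 to 1.48), and Ctso was at 9.36 and 13.1 FPKM, 1.40-fold lower (1.19 to 1.66). Both encode lysosomal cysteine proteases. Tinagl1, a matrix protein with a cathepsin-like domain, was 1.65-fold higher (1.56 to 1.74) at 153 FPKM. Of 28 further inhibitor genes, 2 had a row and both were at least 2-fold lower, or 1 with a pseudocount of 5. Over all measured genes, 14.3% were past 2-fold upward and 13.5% downward. Ctla2a, whose protein resembles a cathepsin propeptide and inhibits Ctsl-type enzymes in mouse, was at 2.15 FPKM in Cdk14-sh and 149 FPKM in Scramble control, 69.5-fold lower (46.1 to 110). It shares 16.3% of its exonic bases with another gene on its strand. Endothelial markers were lower too, with 6 of 7 having a row and sums of 49.4 FPKM in Cdk14-sh and 209 FPKM in Scramble control, and their part in the level of Ctla2a was not tested. The intracellular serpin gene Serpinb6a was 2.83-fold lower (2.31 to 3.48), and 29.3% of its exonic bases overlap exons on the opposite strand.

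Other lysosomal hydrolases had members on both sides. Of 44 looked up, 36 were measured, with a median log2 ratio of 0.49 against 0.02 for all genes. Of these, 10 were past 2-fold upward and 4 downward, beside backgrounds of 14.3% and 13.5%. Among the highest were Acp5, the tartrate-resistant acid phosphatase of osteoclasts and macrophages (4.40-fold, 3.27 to 6.01), and the ceramidase Asah1 (2.94-fold, 2.46 to 3.52). The sphingomyelinase Smpd1 (3.38-fold, 2.75 to 4.19), and the mannosidases Manba (7.09-fold, 4.18 to 12.8) and Man2b1 (2.42-fold, 1.93 to 3.04) were lowest. Manba (0.451 FPKM in Cdk14-sh and 3.20 FPKM in Scramble control) reached a mean of 1 FPKM through Scramble control alone. Galc (2.37 and 0.462 FPKM), among those past 2-fold upward, did so through Cdk14-sh alone. With a mean of at least 5 FPKM, 8 of this list were upward and 2 downward. With the ribosomal scaling the median turned to -0.084, with 1 gene upward and 8 downward, and a pseudocount of 5 left 5 upward and 1 downward.

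Genes of the lysosomal membrane, its proton pump and its activator proteins had a median of 0.0031 over 34 genes. Of these, 2 were past 2-fold upward and 1 downward, beside backgrounds of 14.3% and 13.5%. With the ribosomal scaling the median was -0.58, with 2 upward and 9 downward. Lamp1, the main membrane glycoprotein, was at 193 FPKM in Cdk14-sh and 116 FPKM in Scramble control, a log2 ratio of 0.73. The highest were the proton pump subunit Atp6v0a1 (4.56 and 0.105 FPKM) and the cystine transporter Ctns (4.26 and 0.0579 FPKM), and both reached a mean of 1 FPKM through Cdk14-sh alone. With a mean of at least 5 FPKM, 0 of this list were past 2-fold upward. The pump subunits Atp6v1c1 (3.09-fold, 2.77 to 3.46) and Atp6v0d1 (1.94-fold, 1.65 to 2.29) and the saposin precursor Psap (1.96-fold, 1.75 to 2.20) were lowest.

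Of 23 genes that sort lysosomal enzymes or regulate lysosomes, 20 were measured, with a median of 0.22. In each direction 1 was past 2-fold, beside backgrounds of 14.3% upward and 13.5% downward. With the ribosomal scaling the median was -0.32, with 0 upward and 2 downward. A pseudocount of 5 left 0 upward and 1 downward, as did a mean of at least 5 FPKM. Nagpa, which uncovers the mannose 6-phosphate tag, was 2.56-fold higher (1.64 to 4.10), and the autophagy receptor Sqstm1 was 2.24-fold lower (2.15 to 2.34). Tfeb, the transcription factor of the lysosomal gene network, was at 2.15 FPKM in Cdk14-sh and 0.831 FPKM in Scramble control. Its ratio was 2.59 (1.59 to 4.33), though its log2 ratio with the pseudocount was 0.78. Tfeb reached a mean of 1 FPKM through Cdk14-sh alone. The adaptor subunit Ap1m1 had a log2 ratio of 0.69, and the transport adaptor Gga2 and the tagging enzyme Gnptab had -0.70 and -0.29.

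Ctss acts on the invariant chain, and the median log2 ratio of MHC class II loading genes was 0.80. Of 15 looked up, 8 were measured, with 3 past 2-fold upward and 2 downward, beside backgrounds of 14.3% and 13.5%. The ribosomal scaling took the median to 0.28 with the same counts. A pseudocount of 5 took it to 0.49, with 3 upward and 1 downward. The invariant chain gene Cd74 was at 175 FPKM in Cdk14-sh and 49.0 FPKM in Scramble control, 3.57-fold higher (3.21 to 3.99). The class II chains H2-Aa (50.2 and 5.45 FPKM) and H2-Ab1 (125 and 23.6 FPKM) were higher as well. Their ratios were 9.22 (7.53 to 11.4) and 5.28 (4.67 to 5.98), from at least 105 fragments in each library. The lysosomal thiol reductase Ifi30, which also prepares antigens for class II, was lower, at 35.6 FPKM in Cdk14-sh and 84.8 FPKM in Scramble control, and so was the class II regulator Rfx5 (0.813 and 2.93 FPKM). Rfx5 reached a mean of 1 FPKM through Scramble control alone. Rfxap, its partner in the same complex, was at 4.21 and 3.63 FPKM. The class II transactivator Ciita has no row.

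Myeloid cells express Ctss and MHC class II, and their markers differed unevenly between the libraries. Of 28 myeloid markers 11 had a row, with summed levels of 76.3 FPKM in Cdk14-sh and 42.2 FPKM in Scramble control, most of it from the endosomal protein gene Cd68 (31.97 and 25.8 FPKM) and the endotoxin receptor gene Cd14 (17.6 and 12.9 FPKM). Of the 7 measured ones, Cybb, C1qc and the Fc receptor chain Fcer1g reached a mean of 1 FPKM through Cdk14-sh alone, the library where they were high. The other 4 had log2 ratios of 1.36 (Csf1r), 0.42 (Cd14), 0.38 (Zbtb46, a dendritic cell factor) and 0.30 (Cd68). The oxidase gene Cybb stood at 8.002 FPKM in Cdk14-sh and 0.0338 FPKM in Scramble control, a single fragment in the control as for Ctss. The complement gene C1qc stood at 4.07 and 0.203 FPKM, and the macrophage growth factor receptor Csf1r at 4.23 and 1.05 FPKM. Markers with a mean below 1 FPKM went both ways. The pan-leukocyte gene Ptprc was lower, at 0.247 FPKM in Cdk14-sh and 0.482 FPKM in Scramble control, as was Cx3cr1 (0.0218 and 0.0872 FPKM). Cd163 (0.657 and 0.036 FPKM) and Itgam (0.307 and 0.0409 FPKM) were higher. Apart from Ptprc, these had 1 or 2 fragments in Scramble control. The defining markers Lyz2, Adgre1, C1qa, Tyrobp and Spi1 were among 17 with no row, as were all 7 B cell markers. The part of myeloid cells in the levels of Ctss, Ctsh and Ctsc was not tested. Summed levels of luminal markers were 917 FPKM in Cdk14-sh and 1633 FPKM in Scramble control. Of 10 measured luminal markers, 2 were higher in Cdk14-sh, Krt19 (42.9 and 20.5 FPKM) and Cldn4 (19.7 and 10.7 FPKM). Below a mean of 1 FPKM, Prlr (1.77 and 0.154 FPKM) and Esr1 (1.55 and 0.0862 FPKM) were higher too. Fibroblast markers summed to 76.7 FPKM in Cdk14-sh and 114 FPKM in Scramble control. The fibroblast sum was carried by Dcn (41.2 and 104 FPKM), and the other 4 fibroblast markers with a row were higher in Cdk14-sh, from 1.99-fold for Col1a1 to 7.44-fold for Col3a1. In bulk libraries, more cells of a type and more RNA per cell cannot be told apart.

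Ctss is known to respond to interferon gamma, and genes of that response did not share a direction. Of 19 measured genes, 5 were past 2-fold upward and 6 downward, beside backgrounds of 14.3% and 13.5%. Their median was 0.23 (with the ribosomal scaling, 1 upward, 7 downward and a median of -0.29). A pseudocount of 5 left 0 upward and 4 downward. The immunoproteasome genes Psmb9 (2.001 FPKM in Cdk14-sh and 0.0805 FPKM in Scramble control) and Psmb10 (10.6 and 3.22 FPKM) and the guanylate-binding protein gene Gbp3 (31.5 and 13.5 FPKM) were highest. Psmb9, with 1.5 fragments in Scramble control, reached a mean of 1 FPKM through Cdk14-sh alone. The interferon-induced GTPase genes Igtp (2.31 and 34.6 FPKM), Iigp1 (1.70 and 25.3 FPKM) and Ifi47 (6.66 and 27.7 FPKM) were lowest.

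**Figure D4:**
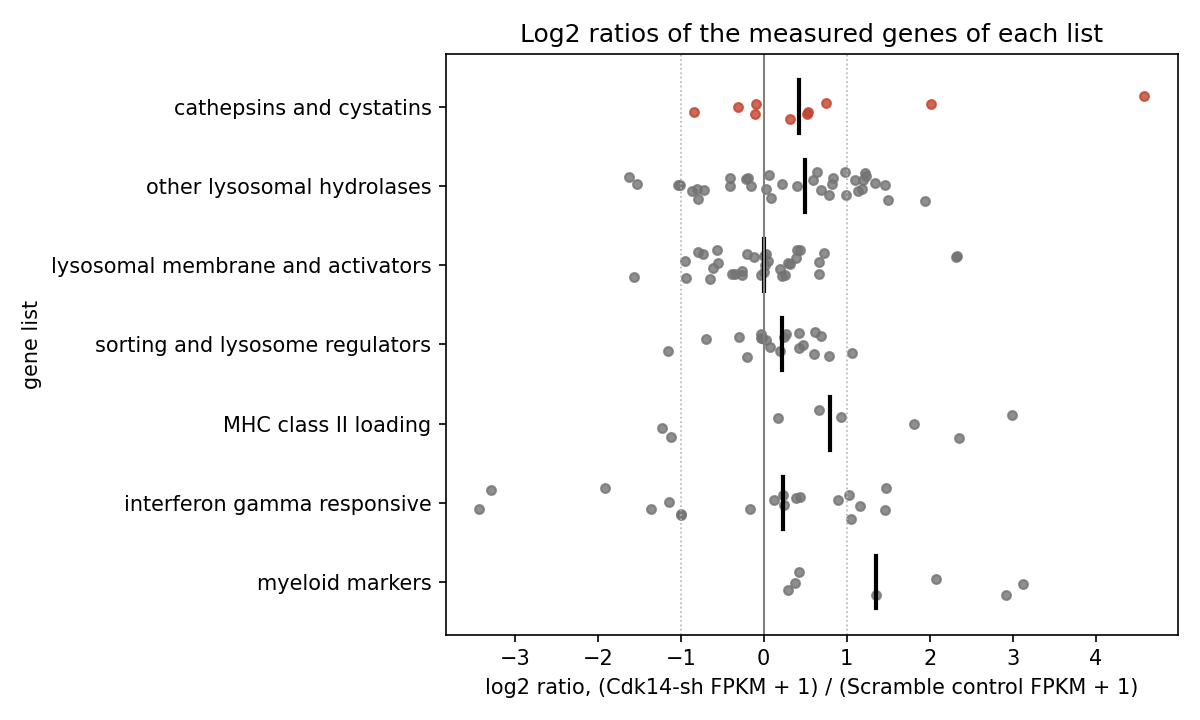
Log2 ratio of each measured gene (points, with vertical jitter) and the median of each list (black bars), with dotted lines at 2-fold. The median is 0.42 for the cathepsins and cystatins and 0.80 for MHC class II loading (-0.19 and 0.28 with the ribosomal scaling). Of the 7 myeloid markers, 3 reached the mean of 1 FPKM through Cdk14-sh alone, and interferon gamma responsive genes spread to both sides.

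Genes of the extracellular matrix and of secreted proteolysis, where released cathepsins act, were also mixed, with a median of -0.08 over 19 measured genes. Of these, 6 were past 2-fold upward and 4 downward, beside backgrounds of 14.3% and 13.5%. With the ribosomal scaling the median was -0.69, with 3 upward and 5 downward. The basement membrane linker Nid1 (13.7-fold, 9.69 to 19.9), fibronectin Fn1 (8.53-fold, 6.22 to 11.96) and the urokinase gene Plau (4.40-fold, 3.52 to 5.54) were highest. Nid1 and Fn1, at 0.990 and 0.731 FPKM in Scramble control, reached a mean of 1 FPKM through Cdk14-sh alone. The metalloprotease inhibitors Timp1 (8.69-fold, 5.46 to 14.6) and Timp2 (3.95-fold, 3.52 to 4.44) and the laminin chain Lamb3 (2.296-fold, 2.05 to 2.57) were lowest.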

How the data were processed

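RNA libraries were made with a stranded mRNA kit from total RNA, per the labels' protocols. Bowtie 0.12.2, Subread 1.5.1 and its featureCounts, with mm8 and GRCm38 as builds of unstated role, come from the submitters' processing notes. The authors deposited 1 table of FPKM values with a column for each library, assigned to the only title it abbreviates. No source used here states how overlapping genes or strand were handled.

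Fragments were recovered as FPKM times exonic length (GENCODE M21, GRCm38), divided by the commonest of the lowest products, which was taken as 1 fragment. Lengths were matched for 15191 genes, and for 79.7% of them the result was a multiple of 0.25 fragments in both libraries (tolerance 0.02; chance gives 16% in 1 library), and fragment numbers of the rest, including those of Ctsb and Cstb, are approximate. Where a symbol had several rows, the row with the highest mean was kept. Ratios in the text are of FPKM, and log2 ratios add 1 FPKM to both values, which understates the difference of low genes. Clopper-Pearson intervals of the fragment share were turned into ratios with scipy 1.17.1. Without molecular identifiers, sequenced fragments can be copies of one molecule, so intervals cover counting error alone.

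The members and lists were chosen with earlier results of these data known. Named genes are the members, all listed cathepsins and their inhibitors, and of each list the 3 highest and 3 lowest measured log2 ratios, except an item that is not reported here; markers, neighbours, Ciita and genes named for having no row were added after the values were seen. Recovery of depth and fragments was tested on simulated data. Simulated data cannot show that the fragment unit taken for the deposited values is right. In the deposited values, fragment numbers were whole in both libraries for 30.5% of genes with a matched length. Alternatives were other pseudocounts, scalings, filters and fold limits, summed rows of shared symbols, and reads counted singly.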

Additional observations from a re-analysis of the deposited data

How the results depend on the processing

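No paired analysis was possible because each group has 1 library, and no library could be left out for the same reason. Of 70 alternative log2 ratios of the members, 53 stayed within the counting interval, 14 moved beyond it with the same sign, and 3 turned sign. All 3 (Ctsa -0.076, Ctsc -0.069, Cstb -0.29) did so with the scaling to ribosomal protein genes, which by construction lowers log2 ratios by up to 0.61. That scaling also turned the members' median to -0.19 and that of the other hydrolases to -0.084, put 1 member (Ctsl) at least 2-fold lower, and made 20.3% of all 2-fold calls higher against 51.3% as deposited. With a pseudocount of 5, 1 member was at least 2-fold higher, with Ctsh at 0.89, and 10.05% of all genes were past 2-fold, against 27.8% with a pseudocount of 1. With a mean of at least 5 FPKM, Ctsh was left out and 1 member was higher. A limit of 1.5-fold put 3 members higher (Ctss, Ctsh and Ctsz), 1 lower (Ctsl) and 49.8% of all genes past it, and a limit of 4-fold left 5.96%. Ctss ranged from 2.61 with a pseudocount of 5 to 6.76 with one of 0.1. With each read taken as independent, the intervals of Ctsd (0.886 to 0.979) and Cst3 (0.898 to 0.983) no longer held 1. The single control fragment of Ctss limits how closely its ratio can be known.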
